A study of Solea senegalensis with 8 samples.

Results

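This report compares whole embryos of Senegalese sole (Solea senegalensis), a flatfish, incubated at 21°C with those incubated at 15°C, both collected at 75% epiboly (75Ep). The eggs came from natural spawning of captive broodstock. Their small RNA was read by SOLiD sequencing, which records pairs of neighbouring bases as colours. There was 1 library per temperature, and each was a pool of triplicate samples, so 2 of the 8 libraries of the series belong to this comparison. The other 6 libraries come from 3 later stages, named 20S (20 somites), Hatch (newly hatched larvae) and Met (metamorphosing larvae), and are used only for side-by-side values. Both 75Ep groups share everything the labels give except the incubation temperature, and the match in stage rests on the label alone. The libraries also differed in yield. By the study's own summary, the 75Ep library at 21°C kept the smallest part of its raw reads after trimming of all 8 libraries. Its reads were also the shortest on average. Whether this bears on the differences below was not tested. With 1 library a side the sequencing holds no replicate check, no test was made here, and every difference below is a difference between these libraries. The 95% intervals given cover counting error only and say nothing of the spread between batches of embryos. Because PCR copies cannot be told from separate molecules, even the counting error may be understated.

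MicroRNAs (miRNAs) are short RNAs that guide a silencing complex to complementary sites in mRNAs, whose translation or stability then falls. At 75% epiboly the cell sheets of a fish embryo have spread most of the way over the yolk while gastrulation lays down the germ layers, before organs form. In zebrafish the miR-430 family is transcribed in great amounts as the embryonic genome switches on, and it clears maternal mRNAs. miRNAs bound to particular tissues, such as miR-122 in liver or miR-1 in muscle, are known to accumulate later. A precursor hairpin gives a 5p and a 3p strand, one of which is usually kept and the other mostly degraded.

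All 320 miRNAs of the deposited table were followed. The 21°C library had 2169069 trimmed reads (small RNA reads left after trimming), of which 142964 were miRNA reads, and the 15°C library had 2802986, of which 191673 were. At least 1 read was found for 220 miRNAs at 21°C and for 218 at 15°C, with 193 found in both libraries, 245 in either and 75 in neither. A comparison was made for the 149 miRNAs with 10 or more reads in at least 1 of the 2 libraries, and these held 99.9% of the miRNA reads of each. The remaining 96 detected miRNAs had too few reads for a fold to be read. A miRNA with no read could still make up 0.000138% of the trimmed reads at 21°C, or 0.000107% at 15°C, which is what 3 reads are worth.

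The stage label was set against known markers. The miR-430 family, which marks the early embryo, held the top 2 places in both libraries. Of the defining miRNAs of later organs, some were at or near 0 and others were read clearly. The liver miRNA miR-122-5p had 2 reads at 21°C against 8 at 15°C. miR-122-3p had 1 read at 21°C and 0 at 15°C, and the gut miRNA miR-194a had 1 in each. The red cell miRNA miR-144-3p and the gut miRNA miR-215 had 0 in both, the white cell miRNA miR-142 had 1 and 0, and the neural miRNA miR-9a-5p had 3 at 21°C and 1 at 15°C. Clearly read were miR-124-5p of neurons (805 reads at 21°C against 166 at 15°C), miR-206-3p of muscle (491 against 251), miR-140-3p of cartilage (826 against 113), miR-204 of the eye (3334 against 963) and miR-192 of liver and gut (128 against 32), all with more reads at 21°C. The other strand, miR-124-3p, had fewer reads, 73 at 21°C against 21 at 15°C. miR-150 of white blood cells had 116 reads at 21°C against 123 at 15°C, and miR-451 of red cells had 21 against 54. In bulk embryos, fewer cells that make a miRNA and less of it per cell cannot be told apart.

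The 320 miRNAs of the table together took almost the same share of the small RNA at both temperatures, but the make-up differed widely. They were 6.59% of trimmed reads at 21°C and 6.84% at 15°C, a ratio of 0.964 (95% interval 0.957 to 0.970). The table holds a smaller part of the reads that the study matched to miRBase at 21°C than at 15°C. By the study's own counts of such reads, their share of trimmed reads was the larger at 21°C. The direction of this ratio thus depends on reads that the table leaves out. The miR-430 family was 3.21% of trimmed reads at 21°C and 5.83% at 15°C, a ratio of 0.550 (0.545 to 0.555). All other miRNAs were 3.39% at 21°C and 1.01% at 15°C, a ratio of 3.36 (3.32 to 3.41). Within the miRNA reads, miR-430 thus fell to 48.6% at 21°C, against 85.3% at 15°C. The reads were also spread over more miRNAs at 21°C, where 23 miRNAs made up 90.0% of miRNA reads, against 7 at 15°C. The 10 most abundant miRNAs held 80.4% of miRNA reads at 21°C and 92.5% at 15°C.

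**Figure D1:**
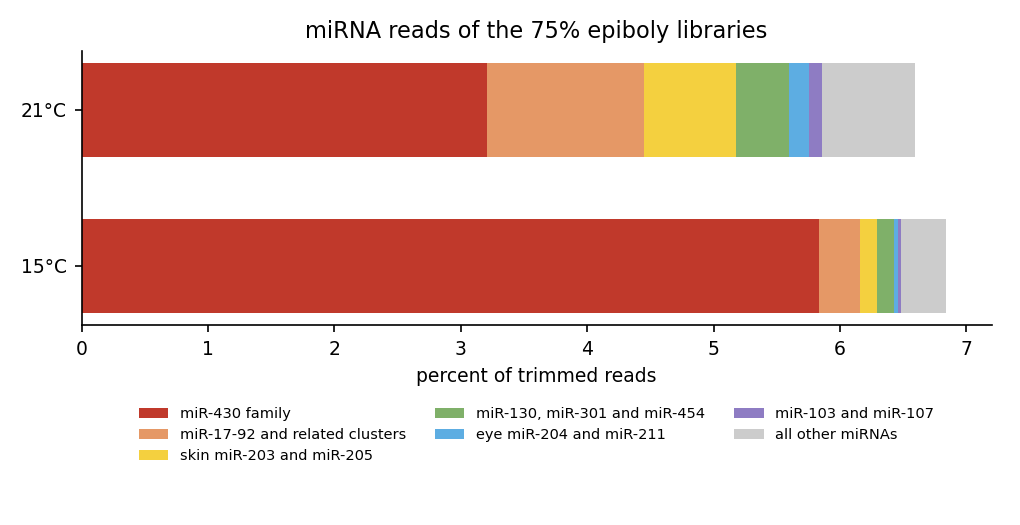
Percent of trimmed reads taken by miRNAs in the 21°C library (upper bar) and the 15°C library (lower bar), stacked by miRNA group. The bars have nearly the same length, 6.59% and 6.84%, while the miR-430 segment is 3.21% at 21°C and 5.83% at 15°C.

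Among single miRNAs, most were more abundant at 21°C. Of the 149 compared, 121 had a larger share of trimmed reads at 21°C and 28 a smaller share. A difference of at least 2-fold was seen for 85 miRNAs that were higher at 21°C (57.0% of those compared) and for 10 that were lower (6.71%), and the median log2 ratio of 21°C over 15°C was 1.17. At 4-fold, 48 were higher (32.2%) and 5 were lower (3.36%). The median log2 ratio was above 0 at each level of reads at 15°C. It was 1.48 for the 56 miRNAs outside miR-430 with under 30 reads at 15°C, 1.01 for 43 with 30 to under 100, 1.34 for 41 with 100 to under 1000, and 1.58 for 5 with 1000 or more. The lowest level holds all miRNAs that entered the comparison through their 21°C reads alone. Their ratios had to be above 0, so the sign of that median is partly set by the filter. At the edge of the 2-fold limit, miR-126a-3p stood just inside on the low side at a log2 ratio of -1.02, with miR-451 at -0.99 and miR-430d at -0.96 just outside. On the high side miR-30a-3p stood just inside at 1.01 and miR-210-3p just outside at 0.86.

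Leaving the miR-430 rows out of the total changed this picture. Relative to the miRNA reads outside miR-430, which numbered 73444 at 21°C and 28223 at 15°C, all log2 ratios drop by 1.75. The median became -0.58, with 22 miRNAs at least 2-fold higher at 21°C (14.8%) and 56 at least 2-fold lower (37.6%). Which direction most miRNAs take therefore depends on the total. The order of the miRNAs does not depend on it. In what follows, a ratio is on the scale of trimmed reads unless the scale without miR-430 is named, and a miRNA above 1.75 on the log2 scale of trimmed reads gained on the other miRNAs under both.

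**Figure D2:**
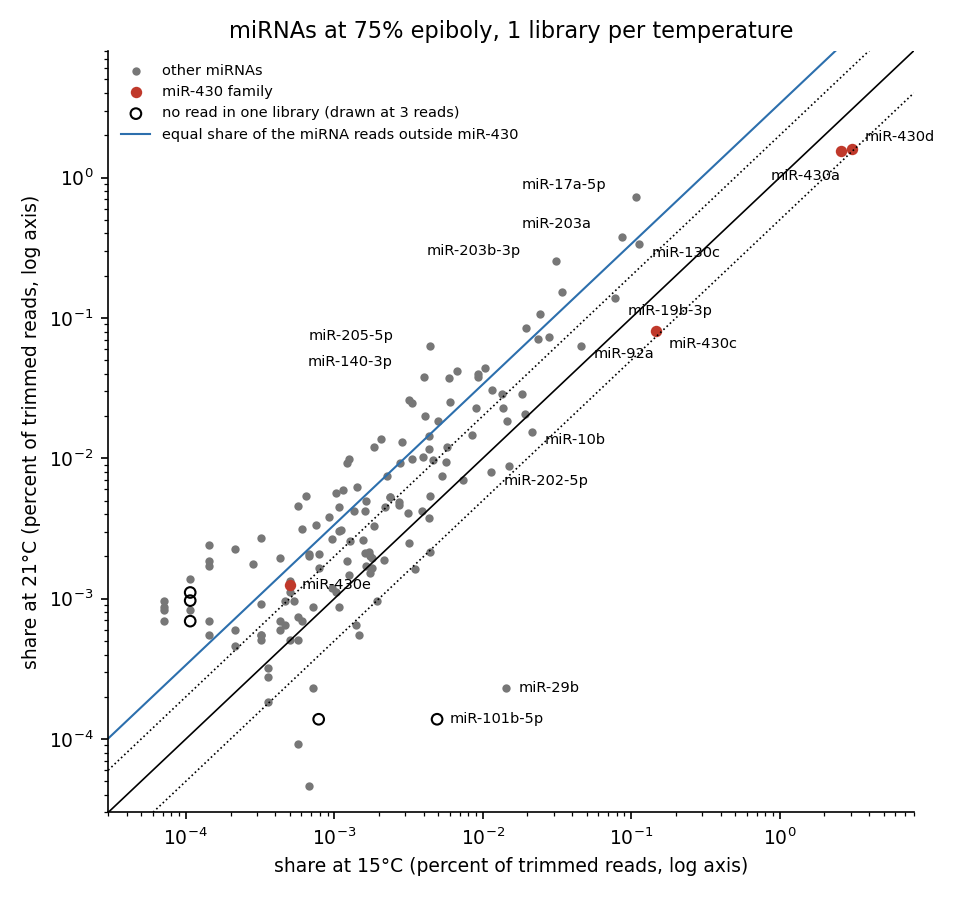
Share of each of the 149 compared miRNAs at 21°C (vertical) against 15°C (horizontal), in percent of trimmed reads on log axes. The black line marks equal shares, dotted lines 2-fold, and the blue line the ratio of 3.36 at which a miRNA keeps its share of the reads outside miR-430. miR-430d, miR-430a and miR-430c lie below the black line, most others above it, and miR-29b and miR-101b-5p far below.

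The abundant miR-430 members were lower together. miR-430d had 34391 reads at 21°C (1.59% of trimmed reads) and 86556 at 15°C (3.09%), a ratio of 0.513 (0.507 to 0.520). miR-430a had 33349 reads at 21°C (1.54%) and 72773 at 15°C (2.60%), a ratio of 0.592 (0.585 to 0.600). miR-430c had 1750 reads at 21°C against 4107 at 15°C, a ratio of 0.551 (0.520 to 0.582). These 3 stayed within 2-fold of equal shares, and they were the most abundant miRNAs at 15°C, where they ranked 1, 2 and 3. At 21°C miR-430c ranked 11. The rare members did not share the direction. miR-430e had 27 reads at 21°C against 14 at 15°C, a log2 ratio of 1.32, and miR-430i had 3 and 0. Members of the family differ by few bases, so reads may have been split between them, and the summed family is the firmer value. At 20S the family took 5.72% of trimmed reads at 21°C and 5.66% at 15°C, a ratio of 1.01, and at Hatch 1.44% and 1.72%.

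Much of the higher non-miR-430 share at 21°C came from few miRNAs. The share of trimmed reads outside miR-430 differed by 2.38 percentage points, and miR-17a-5p alone made 25.9% of that net difference. miR-203a made 12.3%, miR-130c 9.38% and miR-203b-3p 9.33%, and with these 4 the running sum reached 56.9%. The eye miRNA miR-204 added 5.02%. Each of these 5 had at least 872 reads in both libraries, so counting error is small beside the differences.

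miR-17a-5p belongs to the miR-17-92 cluster, which drives proliferation in mammals. It had 15685 reads at 21°C (0.723%) and 3016 at 15°C (0.108%), 6.72-fold higher at 21°C (6.46 to 6.99), and ranked 3 at 21°C and 5 at 15°C. Without miR-430 in the total its log2 ratio was 0.999, just under the limit. The miR-17-92 cluster and its paralogous clusters were represented by 21 miRNAs, of which 18 were compared. Of these, 11 were at least 2-fold higher at 21°C, 1 lower and 6 between, where 57.0% of all 149 were higher and 6.71% lower, with a median log2 ratio of 1.36 beside 1.17 for all 149. Without miR-430 in the total, 2 were higher and 4 lower (14.8% and 37.6% of all 149), and the median was -0.39 beside -0.58. Summed, the clusters took 1.24% of trimmed reads at 21°C and 0.327% at 15°C.

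The members of these clusters had ratios over a wide range, given here by seed. Besides miR-17a-5p, at a log2 ratio of 2.75, the miR-17 seed is carried by miR-20a-5p, miR-93, miR-106a and miR-20b. miR-20a-5p had 2317 reads at 21°C against 682 at 15°C, 4.39-fold higher at 21°C, miR-93 had 955 and 291, miR-106a had 546 and 168, and miR-20b had 161 and 63, a log2 ratio of 1.72. Of the miR-18 members, miR-18a had 913 reads at 21°C against 187 at 15°C, a log2 ratio of 2.66, miR-18c had 200 and 34, a log2 ratio of 2.93, and miR-18b had 52 and 4, the largest log2 ratio of all those compared at 4.07. Of the miR-19 members, miR-19b-3p had 2996 reads at 21°C against 2185 at 15°C, a log2 ratio of 0.83, miR-19a-3p had 497 and 383, at 0.75, miR-19d had 318 and 236, at 0.80, and miR-19c had 45 and 19, at 1.61. miR-92a had 1374 reads at 21°C against 1292 at 15°C, 1.37-fold higher at 21°C (1.27 to 1.48). miR-25-5p, a minor strand, was the member that was lower at 21°C, with 12 reads against 41. In other vertebrates these miRNAs are cut from shared primary transcripts, and here they differed by unequal amounts. The ratio of miR-18a and that of miR-92a have counting intervals that do not meet, 5.39 to 7.42 and 1.27 to 1.48.

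Skin and epithelial miRNAs were higher at 21°C, and all but 1 of the 8 compared, miR-203b-5p, gained on the other miRNAs outside miR-430 as well. miR-203 promotes the exit of skin cells from the stem state in mouse, and miR-205 is a miRNA of stratified epithelia. miR-203b-3p had 5487 reads at 21°C (0.253%) and 872 at 15°C (0.0311%), 8.13-fold higher at 21°C (7.57 to 8.74). miR-205-5p had 1363 reads at 21°C (0.0628%) and 123 at 15°C (0.00439%), 14.3-fold higher (11.9 to 17.4). Among miRNAs with at least 100 reads in either library, that was the largest ratio in this direction. miR-203a had 8214 reads at 21°C against 2420 at 15°C, 4.39-fold higher. All 5 compared of the 6 miRNAs in this group were at least 2-fold higher at 21°C, beside 57.0% of all 149, with a median log2 ratio of 3.00. Without miR-430 in the total, 3 of the 5 were still at least 2-fold higher, beside 14.8% of all 149, none lower, and the median was 1.25. The group summed to 0.730% of trimmed reads at 21°C and 0.134% at 15°C, 5.45-fold higher (5.26 to 5.65), and at 20S to 3.88% and 2.84%.

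The miR-200 family keeps epithelial identity by repressing the ZEB factors. miR-200a-3p had 298 reads at 21°C against 58 at 15°C, miR-200b-3p had 261 and 52, and miR-429-3p had 98 and 30. These 3, the compared miRNAs of 8 in the group, were all at least 2-fold higher at 21°C (57.0% of all 149), with a median log2 ratio of 2.70. Without miR-430 in the total none was past 2-fold in either direction, beside 14.8% higher and 37.6% lower of all 149, and the median was 0.95. miR-31, also known from skin, had 37 reads at 21°C against 4 at 15°C, a log2 ratio of 3.58.

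The cartilage miRNA miR-140 had the highest median log2 ratio of the 33 groups, 3.32. miR-140-3p had 826 reads at 21°C (0.0381%) and 113 at 15°C (0.00403%), 9.45-fold higher at 21°C (7.75 to 11.6), and miR-140-5p had 49 and 6, 10.6-fold higher (4.52 to 30.1). Both strands passed 2-fold under both totals. In zebrafish miR-140 acts in the neural crest cells that form the palate, which appear after this stage. At 20S the strands together took 0.0510% of trimmed reads at 21°C and 0.0558% at 15°C, beside 0.0403% and 0.00425% at 75Ep. Of the miRNA reads outside miR-430 they took 0.307% at 21°C and 0.320% at 15°C at 20S, beside 1.19% and 0.422% at 75Ep, so the order of the stages depends on the total.

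Several other families were higher at 21°C on the scale of trimmed reads, where 57.0% of all 149 miRNAs were at least 2-fold higher and 6.71% lower. Without miR-430 in the total, these shares of all 149 were 14.8% and 37.6%. miR-130c, of a family that shares a seed with miR-301 and miR-454, had 7281 reads at 21°C against 3156 at 15°C, 2.98-fold higher (2.86 to 3.11), and a log2 ratio of -0.17 without miR-430 in the total. In that family 5 of the 6 compared miRNAs, of 11, were at least 2-fold higher at 21°C and none lower, with a median of 1.99 (without miR-430 in the total, 2 higher, 1 lower and 0.24). miR-204, known from the retinal pigment epithelium, had 3334 reads at 21°C against 963 at 15°C, 4.47-fold higher (4.16 to 4.81), and was the only compared miRNA of its group of 3. miR-103a-3p, which affects insulin sensitivity in mouse, had 1852 reads at 21°C against 548 at 15°C. miR-107-3p, which the study lists with the same sequence as miR-103a-3p, had 437 and 115. These rows are therefore not separate members. All 3 compared rows of the miR-103 and miR-107 group, of 4, were at least 2-fold higher at 21°C, with a median of 2.13 (without miR-430 in the total, 0 past 2-fold and 0.38). miR-34a, a target of p53 in mammals, had 1540 reads at 21°C against 660 at 15°C, 3.02-fold higher. The pair miR-221 and miR-222 was higher too, at medians of 2.21 and 0.46 under the 2 totals.

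The miR-181 family, which acts in the differentiation of mammalian lymphocytes and muscle, was at least 2-fold higher at 21°C in all 4 compared miRNAs of 5, beside 57.0% of all 149, with a median of 1.58. miR-181a-3p had 563 reads at 21°C against 89 at 15°C, 8.17-fold higher (6.53 to 10.3), and miR-181a-5p had 201 and 78, 3.33-fold higher (2.55 to 4.38). Without miR-430 in the total, only miR-181a-3p of these 4 stayed past 2-fold, and the median of the family was -0.17. Cell cycle miR-15 and miR-16 had a median of 1.48, with miR-16b at 1588 reads at 21°C against 787 at 15°C, and miR-16a stood at 54 and 89. The median was 1.5 for the mesenchymal miR-199 and miR-214, 1.47 for miR-23, miR-24 and miR-27, 1.25 for hypoxia-induced miR-210 and 1.02 for miR-30. In these 5 groups the median lay between -0.73 and -0.25 without miR-430 in the total. The 7 miRNAs that the study followed by qPCR, and chose on these samples, had 6 at least 2-fold higher at 21°C and none lower. The shares of all 149 were 57.0% and 6.71%. Without miR-430 in the total, 1 was higher and 1 lower, beside 14.8% and 37.6% of all 149. The medians were 1.60 and -0.15 under the 2 totals. The study's qPCR used replicate pools and a spike-in RNA as reference. At this stage it found miR-206-3p, miR-130c, miR-26a and miR-17a-5p significantly more abundant at 21°C. It named no difference at this stage for miR-199a-5p, miR-181a-3p or miR-181a-5p. Without miR-430 in the total, the log2 ratios here were -0.41 for miR-206-3p, -0.17 for miR-130c, -1.11 for miR-26a and 0.999 for miR-17a-5p. The 6 compared of 26 entries numbered 3000 and above had 5 higher and none lower, 1 higher and 1 lower without miR-430, and medians of 1.88 and 0.13.

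Smaller families and ungrouped miRNAs filled the range between. In the miR-30 family, known from kidney and heart, miR-30c had 284 reads at 21°C against 80 at 15°C, a log2 ratio of 2.20, and miR-30b had 136 and 40, at 2.14. miR-30d had 92 and 109, at 0.13, so family members again stood apart. miR-26a, linked to muscle differentiation in mouse, had 620 reads at 21°C against 514 at 15°C, 1.56-fold higher (1.38 to 1.76), and the median of its group of 2 was 0.86, or -0.89 without miR-430 in the total. In the smooth muscle group miR-145 had 203 reads at 21°C against 158 at 15°C, and the median over 3 was 0.73, or -1.02 without miR-430. The vessel group of miR-126 had a median of -0.41 over 2 compared, or -2.16 without miR-430. Of miRNAs in no tissue group, miR-3968 had 828 reads at 21°C against 262 at 15°C, 4.08-fold higher (3.55 to 4.71), and miR-4286 had 311 and 121. miR-21 had 254 reads at 21°C against 121 at 15°C, miR-218a had 220 and 111, and miR-22a had 211 and 130, and these 3 were between 2.10-fold and 2.71-fold higher at 21°C. They were below 0 on the log2 scale without miR-430 in the total, at -0.31, -0.39 and -0.68. miR-456 had 122 reads at 21°C against 29 at 15°C, a log2 ratio of 2.44, and stayed above 0 without miR-430 in the total, at 0.69.

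**Figure D3:**
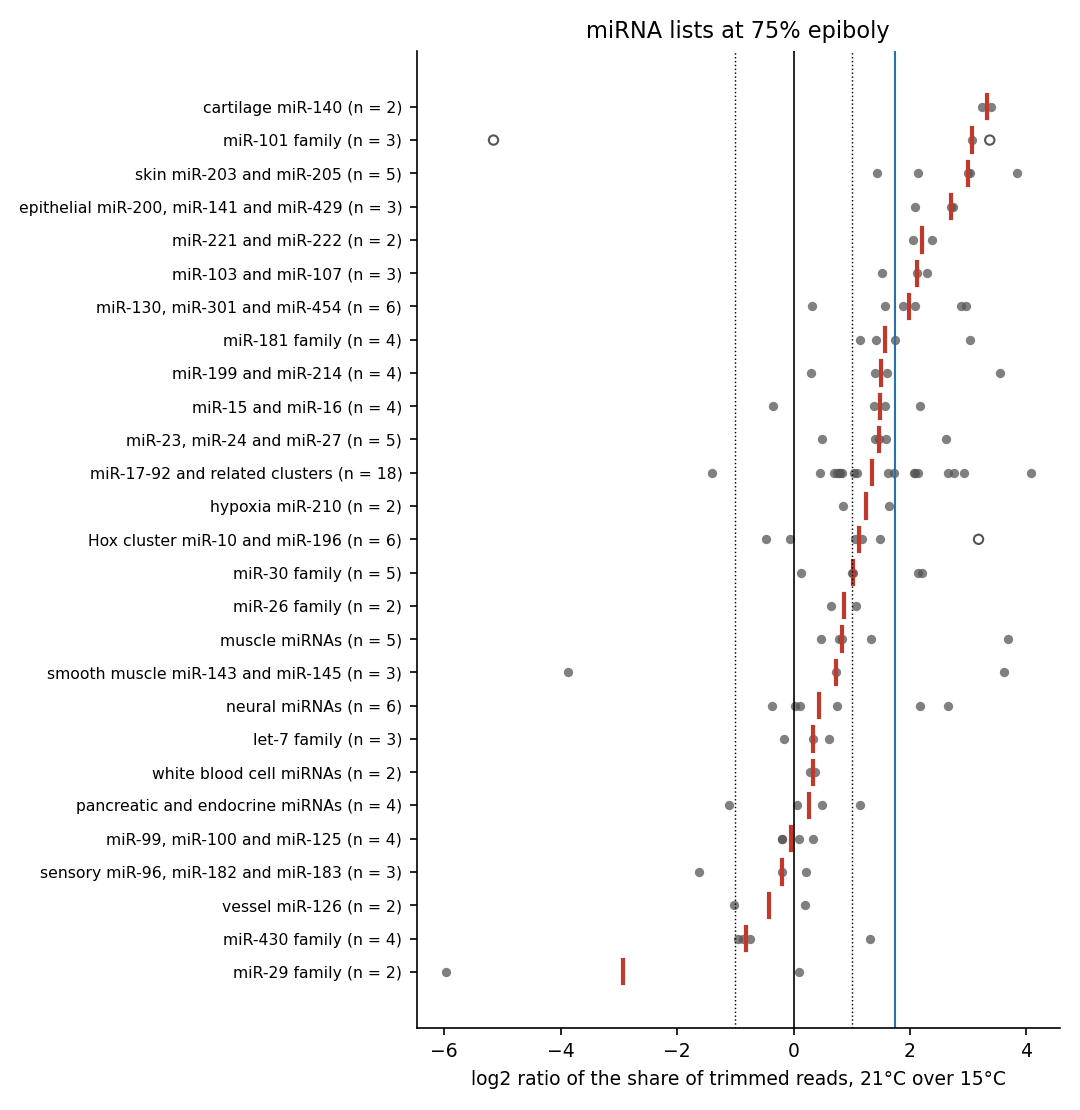
Log2 ratio of the share of trimmed reads, 21°C over 15°C, for each compared miRNA (grey points) in groups with at least 2 compared, with the group median in red. Open circles are bounds for miRNAs with no read in 1 library. The blue line at 1.75 marks an unchanged share of the reads outside miR-430. The group of miR-203 and miR-205 has its median at 3.00, right of the blue line, and let-7 at 0.34, left of it.

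Not every group took part in the higher level at 21°C. The let-7 family, known for timing the switch to differentiation, had 47 reads of let-7a at 21°C against 48 at 15°C, with 40 and 34 of let-7g and 11 and 16 of let-7e. None of these 3, the compared miRNAs of 10, was past 2-fold, beside 63.8% of all 149 in either direction. Without miR-430 in the total all 3 were at least 2-fold lower, beside 37.6% of all 149. miR-99, miR-100 and miR-125, often clustered with let-7, were near equal shares too. miR-125b-5p had 446 reads at 21°C against 539 at 15°C, a ratio of 1.07 (0.941 to 1.21), and miR-99a-5p had 399 and 410, a ratio of 1.26 (1.09 to 1.45). None of the 4 compared, of 8, was past 2-fold. Without miR-430 in the total all 4 were at least 2-fold lower, again beside 37.6% of all 149, at a median of -1.80. The summed group held 0.0444% of trimmed reads at 21°C and 0.0401% at 15°C, beside 0.0447% and 0.0448% at 20S.

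The miRNAs of the Hox clusters were split. miR-10b had 336 reads at 21°C against 605 at 15°C, a log2 ratio of -0.48, and miR-10d had 153 and 206, at -0.06. miR-10c had 115 reads at 21°C against 66 at 15°C, and miR-196a had 67 and 31, while miR-196b had 21 at 21°C and 0 at 15°C. Summed over the 8 miRNAs the group took 0.0329% of trimmed reads in each library. Its count of 4 at least 2-fold higher at 21°C of 6 compared, beside 57.0% of all 149, thus rests on the rarer members, and with only members of at least 100 reads the median was -0.06.

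The miRNAs of later organs differed in level and in ratio. In muscle miRNAs, miR-206-3p had 491 reads at 21°C against 251 at 15°C, 2.53-fold higher (2.17 to 2.95), while miR-1a-3p had 72 and 52. Among 5 compared of 14, 2 were at least 2-fold higher at 21°C and none lower, beside 57.0% and 6.71% of all 149, with a median of 0.84. With miR-430 left out of the total, 1 was higher and 1 lower, beside 14.8% and 37.6% of all 149, and the median was -0.91. In neural miRNAs, miR-124-5p had 805 reads at 21°C against 166 at 15°C, 6.27-fold higher (5.30 to 7.45), and miR-124-3p had 73 and 21. The 5p strand held 91.7% of the miR-124 strand reads at 21°C and 88.8% at 15°C, beside 15.4% and 7.63% at Met. The other 4 compared neural miRNAs, of 22 in the group, were within 2-fold. The gut and liver miRNA miR-192 had 128 reads at 21°C against 32 at 15°C, the one miRNA of its 6 with enough reads. miR-7a, of the endocrine pancreas, had 161 and 149, and miR-150, of white blood cells, had 116 and 123. Medians were 0.43 for the neural group, 0.27 for the pancreatic group and 0.33 for the white blood cell group. Relative to the reads outside miR-430 they were -1.32, -1.48 and -1.42, and at least 2-fold lower were 4 of 6 neural, 3 of 4 pancreatic and 2 of 2 white blood cell miRNAs, with none higher, beside 37.6% lower of all 149.

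Few miRNAs were lower at 21°C, and of those with more than 100 reads 2 were lower by a wide margin. miR-29b, whose family represses collagens in mammals, had 5 reads at 21°C (0.000231%) and 404 at 15°C (0.0144%), 62.5-fold lower at 21°C (26.6 to 194). Its paralog miR-29a had 24 reads at 21°C against 29 at 15°C, a log2 ratio of 0.10, so the difference was not shared within the family, and the family summed to 0.00138% of trimmed reads at 21°C and 0.0154% at 15°C. At 20S miR-29b had 372 reads at 21°C against 515 at 15°C, a log2 ratio of -0.10. miR-101b-5p had 0 reads at 21°C against 138 at 15°C, at least 35.6-fold lower at 21°C. Other strands of the miR-101 family went the other way, with miR-101a-5p at 24 reads at 21°C against 0 at 15°C, and miR-101b at 117 and 18. At 20S miR-101b-5p had 134 reads at 21°C against 259 at 15°C. At Hatch it had 1 read at 21°C against 287 at 15°C, a log2 ratio of -7.76, and miR-101a-5p had 104 against 5, at 4.78. The rows miR-101a-5p and miR-101b-5p were thus high in opposite libraries at Hatch, as in the comparison here. At 20S the row miR-101a-5p was all but empty in both libraries. Whether reads were split between these rows was not tested.

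The remaining miRNAs lower by at least 2-fold were miR-126a-3p, miR-216b, miR-458, miR-25-5p, miR-96, miR-466i, miR-33-3p and miR-143-5p. miR-126a-3p, of the vessel lining, had 47 reads at 21°C against 123 at 15°C, and miR-458 had 35 and 98. miR-216b, of the pancreas, had 14 reads at 21°C against 39 at 15°C, and miR-96, of the hair cells of the ear, had 5 and 20. miR-33-3p had 2 and 16, and miR-466i had 0 and 22, at least 5.67-fold lower at 21°C. Their intervals are wide, and for 4 of the 10 lower miRNAs the whole interval lay past 2-fold. The sensory group of miR-96, miR-182 and miR-183 had a median of -0.20 over 3 compared, or -1.95 without miR-430 in the total, with miR-182-5p at 41 reads at 21°C against 61 at 15°C. Just short of the limit was the red cell miRNA miR-451, with 21 reads at 21°C against 54 at 15°C. Further from it was miR-1260b, with 191 and 422, at a log2 ratio of -0.77. The germ line miRNA miR-202-5p had 172 reads at 21°C (0.00793%) and 318 at 15°C (0.0113%), 1.43-fold lower at 21°C, and at 20S it had 33 and 16.

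A read in only 1 of the libraries was mostly a matter of few reads. In all, 27 miRNAs were read only at 21°C, and 24 of them had at most 5 reads. The other 3 were miR-101a-5p with 24 reads, miR-196b with 21 and miR-4304 with 15, which are at least 10.3-fold, 9.05-fold and 6.46-fold higher at 21°C. Of the 25 read only at 15°C, 23 had at most 9 reads, and the others were miR-101b-5p and miR-466i. All 27 of the first set and 19 of the second were read at a later stage.

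The 5p share of a precursor and the gap between its strands do not depend on any total, since both strands are counted in the same library. Counts of strands past 2-fold do depend on it, and are given on the scale of trimmed reads. In 19 precursors each strand had at least 10 reads in a library, and for 10 of them the intervals of the 5p share at the 2 temperatures did not meet (52.6%). Both strands were at least 2-fold higher at 21°C in 9 precursors (47.4%). The share of single miRNAs was 57.0%, which is not a like measure, since a pair needs both strands to pass. In 6 more, 1 strand was higher and the other within 2-fold, in 1 a strand was lower, in 1 neither was past 2-fold, and in miR-25 and miR-143 the strands went opposite ways. The row miR-101b carries no strand name, so it was not paired with miR-101b-5p. These 2 rows also went opposite ways, at log2 ratios of 3.07 and at most -5.15. Without miR-430 in the total, only miR-140 and miR-205 had both strands at least 2-fold higher at 21°C. On that scale miR-19a and miR-126a had both strands at least 2-fold lower. The median gap between the log2 ratios of the strands was 1.21, and it was under 1 in 7 precursors. A strand could enter through 1 library alone, as miR-133b-5p did with 30 reads at 21°C and 3 at 15°C. Such entries favour wide gaps and shares that differ, so these counts are partly set by the filter. With at least 100 reads per strand in either library, the median gap was 1.30 over 5 precursors.

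Where both strands had many reads, the 5p share could be read closely. For miR-203b it was 10.9% at 21°C (10.1 to 11.7) and 26.9% at 15°C (24.4 to 29.5), and for miR-181a it was 26.3% (23.2 to 29.6) and 46.7% (39.0 to 54.6). In both, the 3p strand gained at 21°C. The 5p strand gained in the others. For miR-184, known from the lens and cornea, it was 67.1% at 21°C (61.7 to 72.2) and 31.5% at 15°C (23.0 to 41.0), for miR-130b 57.1% (53.8 to 60.3) and 40.0% (33.7 to 46.6), and for miR-20a 89.9% (88.7 to 91.1) and 80.8% (78.0 to 83.4). The intervals of miR-140 overlapped, with a 5p share of 5.60% at 21°C (4.17 to 7.34) and 5.04% at 15°C (1.87 to 10.7). Among the paired precursors, the strands of miR-143, of smooth muscle, were the furthest apart, but with few reads. miR-143-5p had 1 read at 21°C and 19 at 15°C, and miR-143-3p had 19 and 2.

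**Figure D4:**
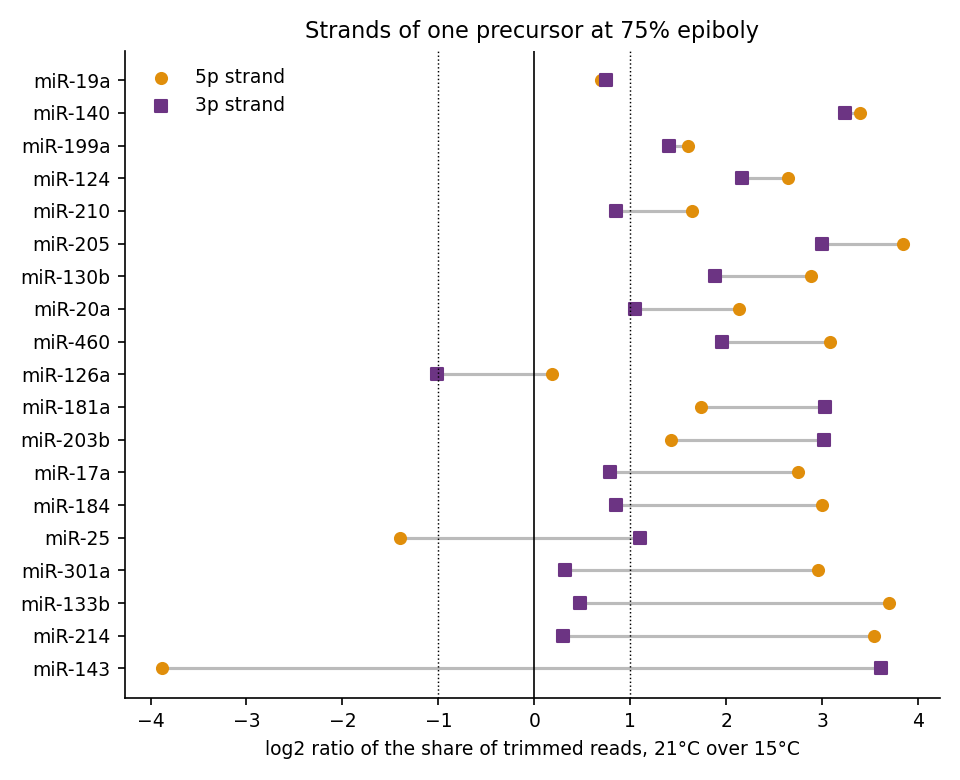
Log2 ratio of the share of trimmed reads, 21°C over 15°C, for the 5p strand (circles) and the 3p strand (squares) of 19 precursors, ordered from the smallest gap at the top to the largest at the bottom. Dotted lines mark 2-fold. The strands of miR-140 lie at 3.40 and 3.24, and those of miR-143 at -3.88 and 3.62.

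The spread of temperature ratios was wider at 75Ep than within any other stage of the series. The interquartile range of the log2 ratio was 1.88 at 75Ep, 0.73 at 20S, 0.89 at Hatch and 0.99 at Met. With at least 100 reads it was 1.57, 0.65, 0.71 and 0.96 over the same stages, so the order did not rest on rare miRNAs. The share of miRNAs past 2-fold in either direction was 63.8% at 75Ep, 16.8% at 20S, 22.0% at Hatch and 71.8% at Met. Relative to the reads outside miR-430 it was 52.3%, 16.2%, 29.0% and 22.6%. At Met the miRNAs took 17.9% of trimmed reads in larvae from 21°C and 46.0% in those from 15°C. Of the 149 miRNAs compared at 75Ep, 143 could be compared at 20S, and 13.3% of these were past 2-fold there. No test of stage against stage was possible with 1 library in each group. Whether the 2 pools at 75Ep were at the same point of development was not tested.

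**Figure D5:**
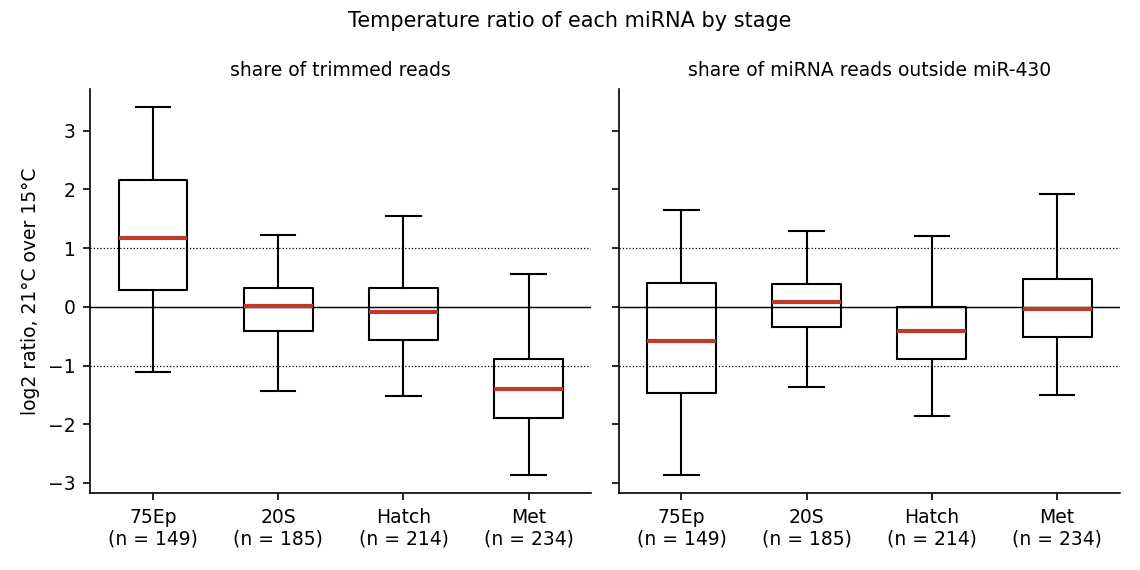
Log2 ratio of 21°C over 15°C for the compared miRNAs of each stage, on the share of trimmed reads (left) and of miRNA reads outside miR-430 (right). Boxes span the middle 50% of miRNAs with the median in red, and whiskers run from the 5th to the 95th percentile. At 75Ep the median is 1.17 on the left and -0.58 on the right, and the box is the tallest in both panels.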

How the data were processed

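The authors trimmed the SOLiD reads, removed other small RNAs and mapped the rest to miRBase. The deposited values are, per the authors, the log2 of the percent that each miRNA takes of the trimmed reads of its library, and -46.51 stands for no read. Reads were recovered by taking as 1 read the low value that makes most values of a library whole. Within 0.01 read, 219 of 220 values at 21°C and 217 of 218 at 15°C came out whole, the exception being miR-200a-5p. The miRNAs of the table hold fewer reads than the study matched to miRBase, by unequal shares in these libraries, so sums over miRNAs are sums over the table only.

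Ratios are 21°C over 15°C with exact conditional binomial 95% intervals, and shares have exact Clopper-Pearson intervals. A miRNA with no read in 1 library was set to 3 reads there, and its fold is a bound. Calculations used Python 3.11.15, numpy 2.4.6, pandas 2.3.3, scipy 1.17.1 and matplotlib 3.10.9, and were tested on simulated data.

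Members and groups were chosen with earlier results of these data known. Named were the 10 miRNAs with most reads, the 10 largest ratios each way with at least 100 reads on both scales, those with no read in 1 library and at least 10 in the other, group members with at least 100 reads, strand pairs and the miRNAs followed by qPCR. Other miRNAs, such as miR-18b, miR-31, miR-21, miR-34a, miR-430e, miR-458, let-7a and markers with few reads, were named after their values were seen. Sequences and positions of the miRNAs were not used here.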

Additional observations from a re-analysis of the deposited data

Results flagged for a closer look

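The 86 miRNAs picked by the naming rule given above were scanned. Of these, 9 differed by at least 2-fold between temperatures at 75Ep and by at least 2-fold the opposite way at 20S or Hatch. With 1 library per group, none of these differences between stages was tested. Met was left out, since those larvae were kept at a common temperature after hatching. Log2 ratios are 21°C over 15°C on the share of trimmed reads, and those without miR-430 in the total are given after them.

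At 20S, miR-184-5p stood at -3.03, with 251 reads at 21°C and 2653 at 15°C, against 3.00 at 75Ep. miR-124-5p stood at -1.01 there, with 814 and 2128 reads, against 2.65 at 75Ep. The muscle miRNA miR-206-3p stood at -1.19, with 4921 and 14568 reads, against 1.34 at 75Ep. miR-214-5p stood at -1.44, with 61 and 215 reads, against 3.54, and miR-301a-5p at -1.17, with 34 and 99, against 2.95. miR-466i went the other way, at 1.52 with 71 reads at 21°C and 32 at 15°C, while it had no read at 21°C at 75Ep. With miR-430 left out, the ratios at 20S and 75Ep were -2.96 and 1.25 for miR-184-5p, -0.94 and 0.90 for miR-124-5p, -1.12 and -0.41 for miR-206-3p, -1.37 and 1.79 for miR-214-5p, -1.10 and 1.21 for miR-301a-5p, and 1.60 and -4.25 for miR-466i.

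At Hatch, miR-20a-5p stood at -5.20, with 416 reads at 21°C and 20229 at 15°C, against 2.13 at 75Ep. Its other strand, miR-20a-3p, stood at -1.33, with 162 and 539 reads, against 1.05. The rows that carry the seed of miR-20a-5p were higher at 21°C at Hatch. miR-17a-5p stood at 1.59, miR-106a at 2.60, miR-20b at 2.10 and miR-93 at 0.28. Whether reads were split between these rows and miR-20a-5p was not tested. miR-143-3p stood at -2.95, with 59 and 603 reads, against 3.62 at 75Ep, where it had 19 and 2. In the 75Ep library at 15°C the 5p share of miR-143 was 90.5%, unlike in every other library of the series. With miR-430 left out, the ratios at Hatch and 75Ep were -5.53 and 0.38 for miR-20a-5p, -1.66 and -0.70 for miR-20a-3p, and -3.28 and 1.87 for miR-143-3p. On that scale miR-206-3p and miR-20a-3p were thus lower at 21°C at both stages, and the other 7 kept opposite signs.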

How the results depend on the processing

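The count of miRNAs at least 2-fold higher at 21°C was 85, and that of those lower 10. Leaving miR-430 out of the total gave 22 and 56, also leaving out miR-17a-5p (chosen after seeing the data) 29 and 49, and centring on the median miRNA 36 and 34. At 4-fold the counts were 48 and 5, and with at least 100 reads in either library 44 and 3. The lower count was 4 with a pseudocount of 10 reads, 22 with no filter, 16 at 1.5-fold, and 4 with the whole interval past 2-fold. The median log2 ratio of 1.17 became -0.58 without miR-430, -0.40 also without miR-17a-5p, 0 by construction when centred, 1.03 with a pseudocount of 10, 0.91 with no filter, 1.51 with at least 100 reads, and 1.33 with families summed. The share of miR-430 was 48.6% at 21°C and 85.3% at 15°C of miRNA reads. With at least 100 reads per strand, 4 of 5 strand pairs were higher in both. The total of all miRNA reads, a pseudocount of 1 and leaving out values that are not whole reads kept each count within 1.5 times, and turned the direction of 1 group, miR-99, miR-100 and miR-125, whose median of -0.047 became 0.0057 with the total of all miRNA reads.

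Without miR-430 in the total, every miRNA or median between 0 and 1.75 falls below 0. Of groups with a median of at least 1 on the log2 scale, it turned to -0.39 for miR-17-92, -0.17 for miR-181, -0.63 for miR-10 with miR-196, -0.25 for miR-199 with miR-214, -0.73 for miR-30, -0.27 for miR-15 with miR-16, -0.28 for miR-23, miR-24 and miR-27, -0.50 for miR-210 and -0.15 for the miRNAs followed by qPCR. Of groups with a smaller median, it turned to -0.91 for muscle, -1.32 for neural, -1.48 for pancreatic and -1.42 for white blood cell miRNAs, -0.89 for miR-26, -1.02 for smooth muscle and -1.41 for let-7. Centred, it was -0.055 for miR-10 with miR-196 and -0.16 for miR-30. With at least 100 reads it was -0.059 for miR-10 with miR-196 and -1.04 for miR-101. Named miRNAs at least 2-fold higher that turned without miR-430 were miR-10c (-0.58), miR-130c (-0.17), miR-15a (-0.18), miR-16b (-0.37), miR-181a-5p (-0.014), miR-181b (-0.60), miR-199a-3p (-0.35), miR-199a-5p (-0.15), miR-203b-5p (-0.32), miR-206-3p (-0.41), miR-20a-3p (-0.70), miR-20b (-0.026), miR-210-5p (-0.10), miR-25-3p (-0.65) and miR-4286 (-0.018). Centred, miR-181b was at -0.022, miR-20a-3p at -0.12 and miR-25-3p at -0.074. No paired analysis was possible because each stage and temperature has 1 library, and for the same reason no library could be left out.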
